A study of Mus musculus with 7 samples.

Results

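The 4 control libraries of a mouse RNA-seq series were examined on their own, to give the ranking of gene levels in alpha cells that carry intact Nkx2.2. They are 4 of the 7 samples of the series, chosen by their control label alone. The other 3 samples, which lack Nkx2.2 in alpha cells, were not used and no knockout comparison was made. All 4 controls have the genotype Nkx2.2+/+;Gcg-iCre;Rosa26:tdTomato, so they too carry a Cre recombinase under the glucagon gene (Gcg) and a red fluorescent reporter that Cre switches on. The cells were sorted from pancreatic islets of C57B1/6J mice (the spelling of the series text) by tomato fluorescence, and the labels give neither age nor sex nor any treatment. A glucagon-driven Cre marks a cell that has, or has had, glucagon gene activity, and the sort selects that mark and not the hormone. The labels do not say that the 4 samples came from separate mice, so the spread given here is that between these samples and may be technical.

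Alpha cells are the glucagon-secreting cells of the islets of Langerhans. Glucagon raises blood glucose by acting on the liver, and its release is stimulated by low glucose and by amino acids and restrained by somatostatin from neighbouring delta cells. The hormone is cut from proglucagon by the prohormone convertase PC2, the product of Pcsk2, stored in dense granules and released by calcium-driven exocytosis.

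Promoters of genes among the 20 most abundant are shown first, because several of them share a core element. They are the 6 that hold it as placed from the RefSeq start, with the immediate early gene Fos beside hormone and granule genes. Also shown are 3 of the 9 that do not (Sst, Chga and Pcsk2). Each sequence runs from 60 bases before the RefSeq start of the gene to 10 bases after it (RefSeq, build GRCm38.p6), 5′ to 3′ on the gene's strand. Capitals mark TATAA, the core of the TATA box that positions transcription initiation at some genes, where it begins 40 to 20 bases before the start.
Gcg (chr2:62483644-62483713, minus strand): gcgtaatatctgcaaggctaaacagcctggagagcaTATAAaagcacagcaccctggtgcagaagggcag
Ppy (chr11:102101310-102101379, minus strand): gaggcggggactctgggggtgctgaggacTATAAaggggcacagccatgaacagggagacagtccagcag
Pyy (chr11:102107823-102107892, minus strand): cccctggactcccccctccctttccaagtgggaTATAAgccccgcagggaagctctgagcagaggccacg
Iapp (chr6:142298365-142298434, plus strand): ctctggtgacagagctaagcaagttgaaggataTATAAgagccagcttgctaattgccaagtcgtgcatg
Scg2 (chr1:79440017-79440086, minus strand): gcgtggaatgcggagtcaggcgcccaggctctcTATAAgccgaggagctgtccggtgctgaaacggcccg
Fos (chr12:85473830-85473899, plus strand): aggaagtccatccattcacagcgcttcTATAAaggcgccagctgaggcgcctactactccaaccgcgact
Sst (chr16:23890835-23890904, minus strand): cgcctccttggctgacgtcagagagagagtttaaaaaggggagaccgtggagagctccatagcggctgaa
Chga (chr12:102554881-102554950, plus strand): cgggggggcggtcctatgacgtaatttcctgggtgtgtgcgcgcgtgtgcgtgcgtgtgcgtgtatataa
Pcsk2 (chr2:143546073-143546142, plus strand): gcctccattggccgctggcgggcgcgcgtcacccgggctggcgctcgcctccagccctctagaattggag

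The letters TATAA stood in that window, on the gene's strand, in 1155 of all 32851 promoters of the table, a share of 3.52%. Among protein-coding genes with a promoter it was 814 of 16522, or 4.93%. The letters stood there in 6 of the 15 matched genes among the 20 most abundant. They also did in 4 of the 7 matched islet hormone genes (Gcg, Ppy, Pyy and Iapp). Chga holds the same letters only after its RefSeq start, outside the window. The gene model used for its counts starts further downstream, at chr12:102554969, beyond the end of the printed sequence (102554950). The letters lie before that start, so the result for Chga depends on which start is used. Genes at or above 1 CPM in all 4 libraries were divided by CPM/kb (the level per kilobase of exon, defined with the next values). Of these, the share was 10.5% (10 of 95) at 100 CPM/kb or more and 1.96% (115 of 5878) between 1 and 10. It was 8.70% (559 of 6428) among genes below 1 CPM in every library. A match is a description of letters, and a promoter without one says only that these letters are not in this window.

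Levels are given as counts per 1000000 counts of a library's total (CPM), and levels of different genes are compared as CPM per kilobase of the gene's joined exons (CPM/kb). A ± is the SD over the 4 libraries (n = 4). Totals were 49112808, 48750632, 45483504 and 72456557 counts in controls 1 to 4, so 1 count was worth 0.0138 to 0.0220 CPM. Protein-coding genes held 74.6% ± 1.27 of the counts, and a single model, Gm23935, which collects ribosomal RNA, held most of the 15.8% ± 1.25 assigned to microRNA models. Control 4 stood apart from the other 3. It had 15714 genes at or above 1 CPM against 13465 to 13721. Models of the ribosomal RNA type took 3.37% of its counts against 0.170 to 0.240%. The 5 models listed as collecting ribosomal RNA, whatever their type, summed to 179861, 202837, 214040 and 179566 CPM in controls 1 to 4. In that sum control 4 was not above the others. Genes whose exons are largely covered by opposite-strand exons were mostly lower in control 4, as described at the end. The X-linked Xist stood at 43.2 and 41.2 CPM/kb in controls 1 and 2, and at 0.00490 and 1.12 CPM/kb in controls 3 and 4. The Y-linked Ddx3y had 0 counts in controls 1 and 2, and 54.3 and 58.4 CPM in controls 3 and 4. If each count is independent, 0 counts allow up to 0.0611 and 0.0615 CPM in controls 1 and 2. Controls 1 and 2 and controls 3 and 4 therefore differed in sex-linked RNA. Control 4 held Xist and Ddx3y together, but all of Xist lies under a gene body of the opposite strand, so its value there may be touched by that difference. The labels do not say whether a library pools animals or sexes.

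Of 22028 protein-coding genes, 11576 (52.6%) reached 1 CPM in all 4 libraries and 9170 reached it in none. Levels were concentrated in few genes. The 10 protein-coding genes at or above 1000 CPM/kb held 21.9% of protein-coding counts, the next 123 (100 to 1000 CPM/kb) held 11.2%, and the 2859 between 10 and 100 CPM/kb held 41.2%. Between 505 and 609 genes were enough to reach 50% of the protein-coding counts of a library. Gcg alone took 13.3%, 11.4%, 13.5% and 11.8% of all counts in controls 1 to 4, a mean of 12.5% ± 1.10. Each share had a Wilson 95% interval of no more than 0.00994 points (percent of counts) above or below it, for counting error only. Relative to protein-coding counts Gcg held 16.8% ± 1.42.

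The 20 protein-coding genes with the highest CPM/kb were 7 hormone genes, 7 genes of the secretory granule (Chga, Resp18, Cpe, Chgb, Pcsk1n, Scg2 and Pcsk2), Ttr, Gpx3, Fos, Eef1a1, mt-Cytb and mt-Co1. Gpx3, an extracellular glutathione peroxidase, stood at 1091 ± 120 CPM/kb, and Eef1a1, a translation elongation factor, at 698 ± 111. The mitochondrially encoded cytochrome b (mt-Cytb) and cytochrome oxidase subunit 1 (mt-Co1) stood at 664 ± 79.3 and 655 ± 57.3 CPM/kb.

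**Figure D1:**
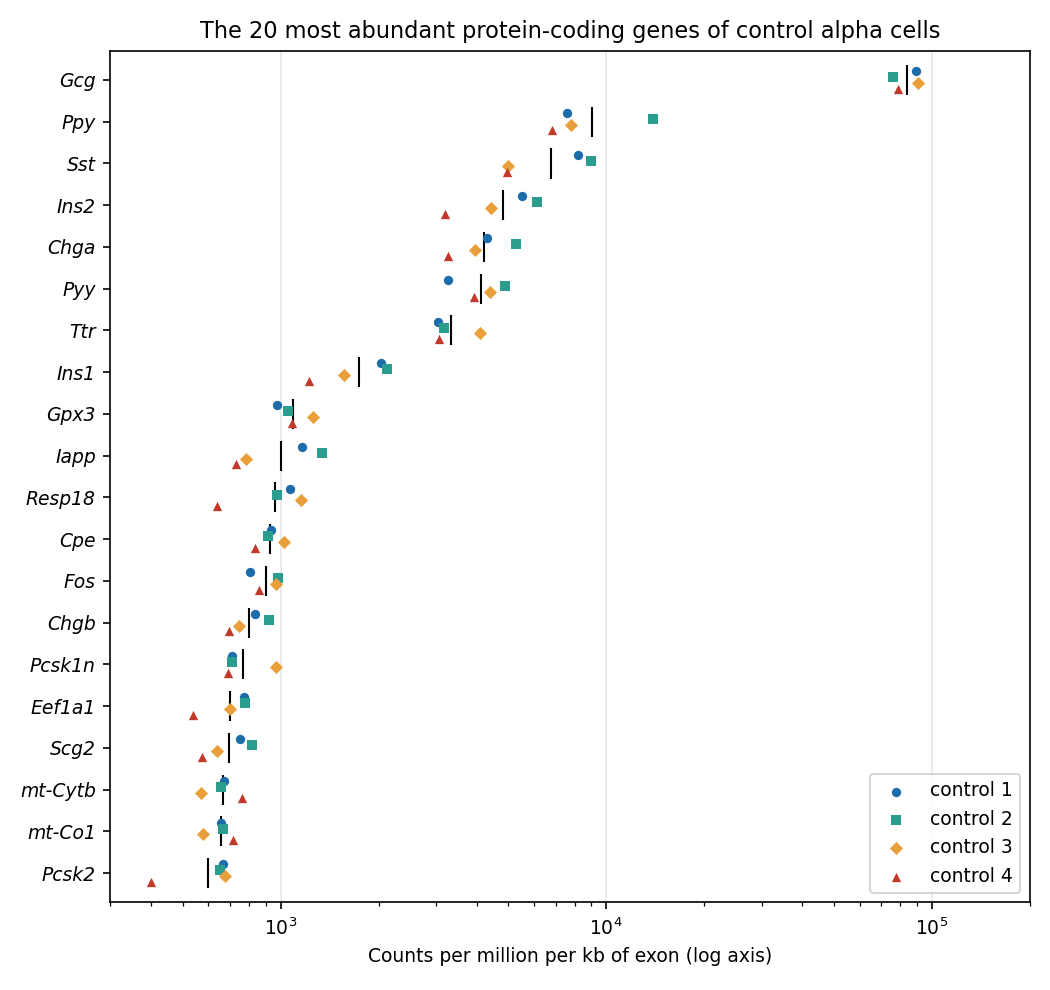
Level of the 20 most abundant protein-coding genes in CPM per kb of exon (horizontal log axis), 1 symbol for each control library and a black line for their mean. Gcg stands at 83660 CPM/kb, 10.1 times Ppy on average over the libraries, and control 4 is the lowest library for Resp18 and Pcsk2.

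The 5 genes used to mark alpha cells were present at high level in every library. Gcg (chr2:62474530-62483650, GRCm38, minus strand) stood at 133263, 113569, 135390 and 117728 CPM in controls 1 to 4. Ttr, which encodes the thyroid hormone and retinol carrier transthyretin, stood at 3618, 3760, 4851 and 3646 CPM. Control 3 was the highest library for both, and the SD between libraries was 8.76% of the mean for Gcg and 14.9% for Ttr. Slc7a2 (chr8:40862396-40922308), a carrier of arginine and lysine, stood at 1175, 1106, 979 and 1206 CPM. The Iroquois homeobox genes were the steadiest of the 5: Irx1 (chr13:71957921-71963723) stood at 178, 198, 199 and 191 CPM and Irx2 (chr13:72628820-72634198) at 177, 185, 182 and 180 CPM. Per length Irx1 was above Irx2 in all 4 libraries, by 1.32 ± 0.0457 times.

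Of the 15 alpha cell markers listed, 14 reached 1 CPM in all 4 libraries. Besides Gcg and Ttr, the abundant ones per length included Slc7a2 (122 ± 11 CPM/kb), Gc, the vitamin D binding protein (94.5 ± 12.4), Irx1 (73.0 ± 3.65), Sphkap, an anchoring protein for protein kinase A (65.9 ± 8.81), and Irx2 (55.2 ± 1.01). Loxl4 was the exception, at 0.0407, 0, 0.0220 and 1.32 CPM, a level above 1 CPM in control 4 alone.

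Hormones of all other islet cell types were found beside glucagon. Ppy, pancreatic polypeptide of gamma cells, stood at 3794, 6983, 3891 and 3410 CPM, with control 2 far above the rest. Sst, somatostatin of delta cells, stood at 5901, 6477, 3612 and 3566 CPM, so controls 1 and 2 were high and controls 3 and 4 low with no overlap. Ins2, the insulin gene with the higher level, stood at 7241, 8065, 5802 and 4192 CPM, in the same order of the pairs. Per length the hormones ranked Gcg (83660 ± 7330 CPM/kb), Ppy (9039 ± 3310), Sst (6781 ± 2107), Ins2 (4821 ± 1297), Pyy (4122 ± 695), Ins1 (1736 ± 422), Iapp (1004 ± 297) and Ghrl (8.11 ± 9.18).

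Gcg was above every other hormone in all 4 libraries, by 10.1 ± 3.11 times over Ppy, 13.3 ± 4.44 times over Sst and 18.4 ± 5.32 times over Ins2 per length. Per length Ppy was above Sst in 3 of 4 libraries and Sst above Ins2 in all 4, yet the ranges of Ppy and Sst overlapped. In CPM, Ins2 was above both in all 4 libraries. The order below Gcg therefore rests on the joined exon lengths, 500 bases for Ppy, 721 for Sst and 1312 for Ins2. Peptide YY (Pyy), a relative of pancreatic polypeptide that is also made in alpha cells, stood at 2060, 3088, 2779 and 2477 CPM. Ins1 stood at 2155, 2260, 1664 and 1295 CPM and Iapp, the amylin gene, at 1133, 1307, 763 and 709 CPM. Like Ins2 and Sst, both were higher in controls 1 and 2 than in controls 3 and 4. This is also the division of the libraries by Xist and Ddx3y, so a difference in these hormones and one in sex-linked RNA cannot be told apart here, and the same holds for the other genes below that divide in this way. Ins2 over Ins1 was steady at 2.76 ± 0.118 per length; the 2 insulin genes are near-identical in their coding parts and how reads were split between them is uncertain. Ghrl, the ghrelin gene of epsilon cells, stood at 8.59, 22.7, 0.440 and 3.26 CPM, the widest spread of the hormones, and without control 2 its mean was 3.80 CPM/kb.

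The summed levels of the alpha, beta, delta and gamma marker lists were mostly those of their hormones, so they largely restate the hormone levels. Mean Gcg was 124988 CPM of a mean alpha sum of 132136, and mean Sst 4889 of a mean delta sum of 5216. Ppy (4519) and Pyy (2601) made up most of the mean gamma sum of 7165. Ins2 (6325), Ins1 (1844) and Iapp (978) made up most of the mean beta sum of 10230.5 CPM. The 15 alpha markers summed to 120465 to 143373 CPM, the 14 beta markers to 11718, 12764, 9176 and 7263 CPM, the 8 delta markers to 6242, 6981, 3854 and 3784 CPM, and the 6 gamma markers to 5899, 10123, 6715 and 5923 CPM. All 14 beta markers reached 1 CPM in all 4 libraries, among them the beta cell factor Nkx6-1, at 71.0, 81.0, 60.6 and 55.2 CPM. In bulk RNA, fewer cells of a type and less RNA per cell cannot be told apart, and whether the other hormones came from other cells or from alpha cells was not tested. The delta cell factor Hhex stood at 22, 27.8, 12.9 and 14.8 CPM and followed the order of Sst in its high and low libraries. The retinol carrier Rbp4 did so as well, at 270, 426, 198 and 163 CPM.

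Cells from outside the islet endocrine lineage gave little signal. The 11 acinar markers summed to 85.9, 13.4, 250 and 6.36 CPM, a 39.4-fold range between libraries led by control 3, and the amylase gene Amy2a5 had 0 counts in all 4. The 8 Schwann cell markers summed to 73.5 to 82.7 CPM. The 8 mesenchymal and pericyte markers summed to 25.5 to 66.6 CPM, highest in control 3. The 8 endothelial markers summed to 8.04 to 12.1 CPM. The 9 leukocyte markers summed to 19.5 to 27.8 CPM, of which C1qa gave 14.1 to 21.9, while Ptprc, the pan-leukocyte marker, stood at 0, 0, 0.352 and 0.0552 CPM. The 5 erythroid markers had 0 counts in controls 1 and 2 and summed to 6.22 CPM in control 4. Of that sum Alas2, which lies wholly under a gene body of the opposite strand, gave 5.53 CPM, and the 4 globin genes stood at 0.0414 to 0.248 CPM. Duct markers summed to 299 to 387 CPM, carried by Krt18 and Krt7, whereas Krt19 stood at 0.179 to 0.704 CPM and Cftr at 0.0440 to 0.656 CPM.

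**Figure D2:**
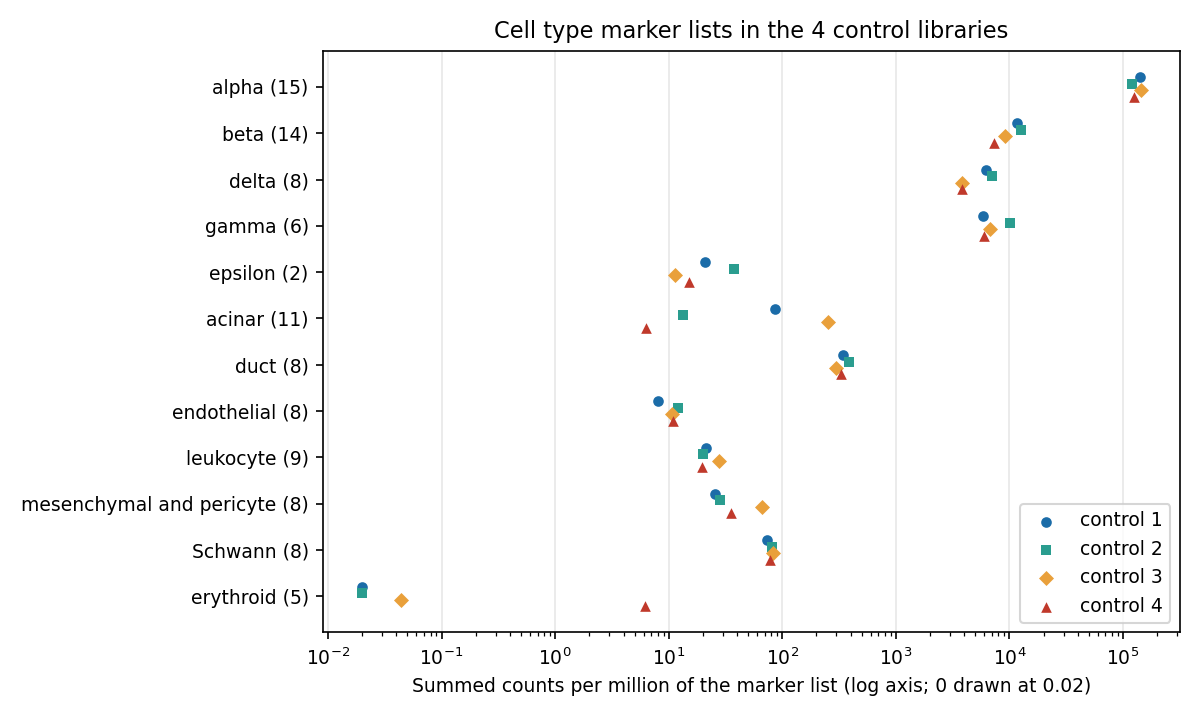
Summed CPM of each cell type marker list (horizontal log axis) in the 4 control libraries, with the number of listed genes in brackets and sums of 0 drawn at 0.02. Alpha markers lie between 120465 and 143373 CPM in all 4 libraries, and the acinar sum ranges from 6.36 to 250 CPM.

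All 26 genes listed for prohormone processing and granule content reached 1 CPM in all 4 libraries, with a median of 68.0 CPM/kb against 0.739 over all protein-coding genes. Chga (chromogranin A), the leading granule matrix protein, stood at 11856, 14560, 10906 and 8978 CPM, and was 5.22 ± 0.432 times its relative Chgb per length. The convertase gene Pcsk2 stood at 5279, 5169, 5355 and 3154 CPM: controls 1 to 3 agreed closely and control 4 was low. Its chaperone gene Scg5 (7B2) stood at 408 ± 24.6 CPM/kb. Pcsk1n, which encodes proSAAS, an inhibitor of the convertase made from Pcsk1, stood at 767 ± 133 CPM/kb. Pcsk1, the convertase that cuts proinsulin, was chosen after its values were seen and stood at 68.9, 75.3, 46.9 and 38.7 CPM. Pcsk2 was above it by 60.4 ± 14.2 times per length, from 48.7 to 80.9 times over the libraries. Cpe, the carboxypeptidase that trims peptide ends, stood at 927 ± 77.6 CPM/kb, Resp18 at 959 ± 228 and Scg2 at 695 ± 108. Slc30a8, the granule zinc transporter, stood at 587, 450, 487 and 621 CPM (272 ± 41.0 CPM/kb).

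Of 45 exocytosis genes 43 reached 1 CPM in all 4 libraries, with a median of 9.02 CPM/kb. Per length they were led by Syt13, a synaptotagmin (140 ± 15.8 CPM/kb), and Cplx2, a complexin that binds the SNARE complex (119 ± 7.26). The rab27 effector Sytl5 (53.7 ± 6.48), the calcium sensor Syt7 (48.6 ± 3.54), the granule GTPase Rab27a (45.1 ± 5.26) and Rph3al (41.1 ± 5.27) followed, and then the SNARE Vamp2 (34.7 ± 2.89). Syt13 was above Syt7 by 2.89 ± 0.228 times and Rab27a above the synaptic GTPase Rab3a, chosen after its values were seen, by 2.35 ± 0.0550 times. The plasma membrane SNARE gene Snap25, chosen after its values were seen, stood at 12.8 ± 1.78 CPM/kb, below Cplx2 by 9.48 ± 1.64 times.

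**Figure D3:**
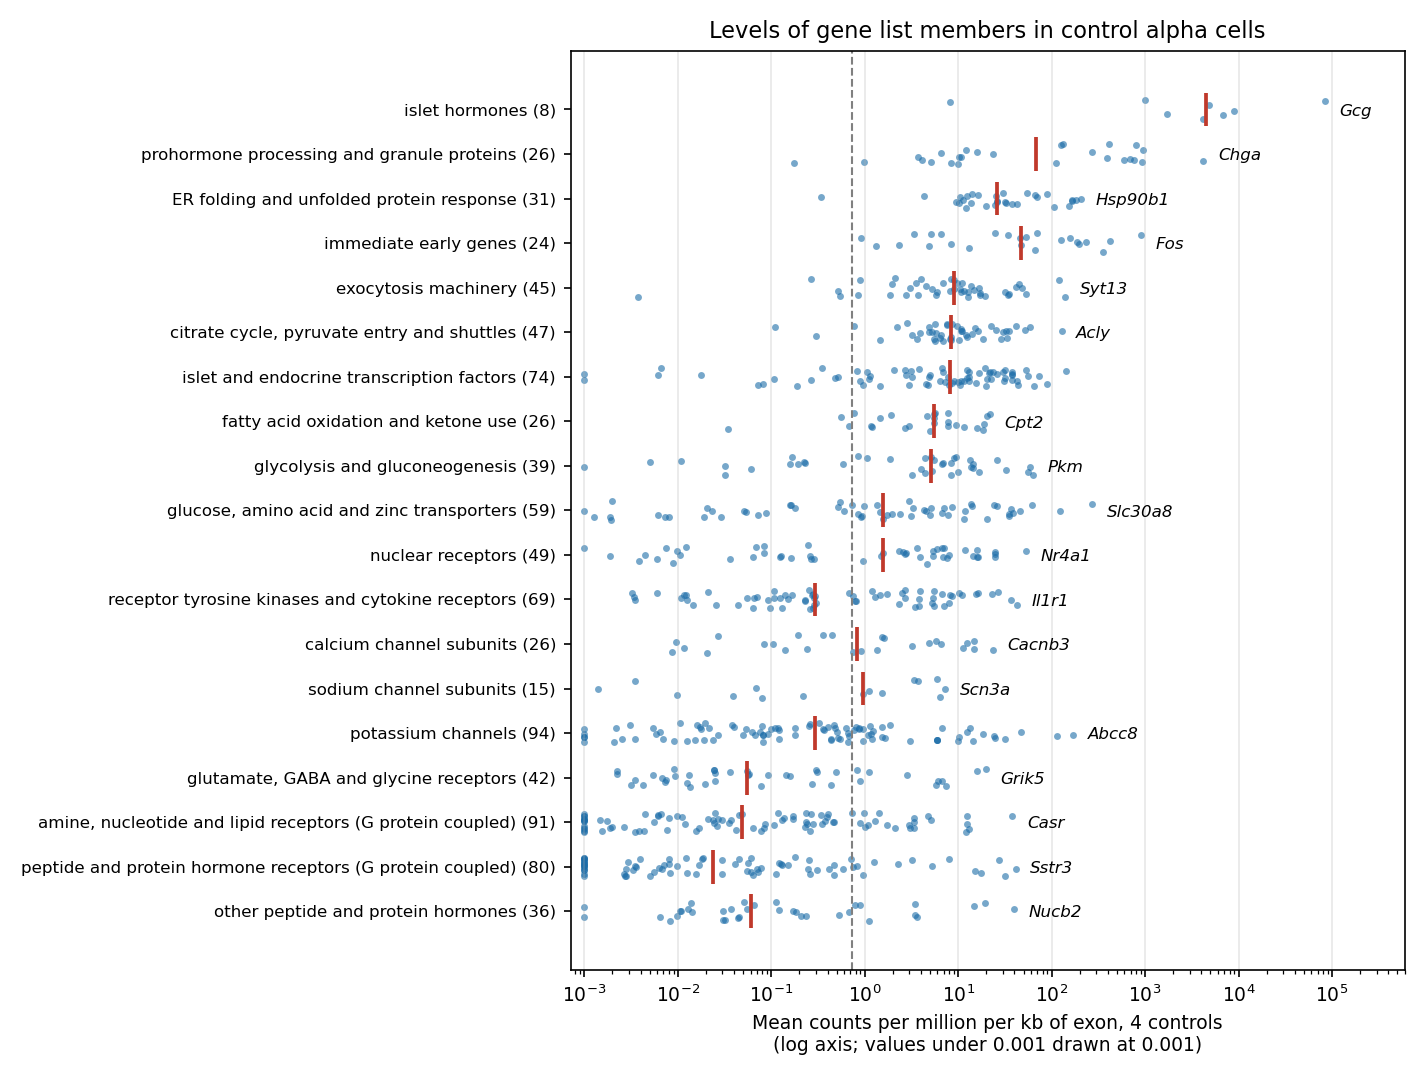
Mean CPM per kb over the 4 controls (horizontal log axis) of each member of 19 gene lists, 1 point per gene, with the list size in brackets, the list median as a red line, the leading gene of most lists named and the median of all protein-coding genes (0.739) as a dashed grey line. Hormone and granule genes lie to the right, and the 2 G protein coupled receptor lists drawn (peptide hormones; amines, nucleotides and lipids) have medians of 0.0241 and 0.0490 CPM/kb.

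Of 74 islet and endocrine transcription factors, 64 reached 1 CPM in all 4 libraries and 8 in none. The median was 8.24 CPM/kb, against 0.0183 over all 200 homeobox and forkhead genes, of which 60 reached 1 CPM in all 4 (0.00874 without control 4). Atf4, the factor of the amino acid and stress response, stood at 89 ± 6.70 CPM/kb. Irx1, Nkx2-2 and Irx2 came after it: Nkx2-2, the gene removed in the other samples of the series, was intact here and stood at 154, 195, 207 and 187 CPM (64.6 ± 7.82 CPM/kb). Nkx2-2 was above Irx2 in 3 of the 4 libraries, so their order was not the same throughout.

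Klf4, a zinc finger factor, stood at 164, 140, 187 and 152 CPM (52.7 ± 6.59 CPM/kb), and was above Isl1 in 2 of 4 libraries. The LIM homeobox gene Isl1 stood at 44.1 ± 5.87 CPM/kb and the bHLH gene Neurod1 at 42.4 ± 5.01. Mafa, a beta cell factor chosen after its values were seen, was steady at 30.5, 33.1, 31.8 and 29.7 CPM. Pdx1, also chosen after its values were seen, stood at 36.1, 46.1, 24.5 and 28.2 CPM, with controls 1 and 2 above controls 3 and 4 as for the insulin genes. Pax4 and Onecut3 had 0 counts in all 4 libraries, where 3 counts would have been 0.0414 to 0.0660 CPM.

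Receptors stood lower than hormones and granule genes. Of 80 peptide and protein hormone receptors, 15 reached 1 CPM in all 4 libraries and 59 in none, and 15 had no count at all. The list median was 0.0241 CPM/kb, and 0.0143 without control 4. Sstr3, a somatostatin receptor, led at 203, 209, 163 and 137 CPM and stood 7.93 ± 0.915 times above Sstr2 per length, which had 12.6, 11.5, 12 and 8.50 CPM. The oxytocin receptor gene Oxtr stood at 188, 121, 181 and 121 CPM, an even split of the libraries into 2 levels that did not follow the split in Sst or in sex-linked RNA. Vipr1, a receptor for vasoactive intestinal peptide, stood at 154, 137, 178 and 167 CPM.

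The incretin receptors came next. Glp1r stood at 128, 110, 92.6 and 79.3 CPM (17.6 ± 3.62 CPM/kb) and Gipr at 56.4, 47.3, 46.7 and 59.0 CPM (15.0 ± 1.8). Both Glp1r and Sstr3 were higher in controls 1 and 2 than in controls 3 and 4, like Sst and the insulin genes. Which cells their RNA came from was not tested. Per length Glp1r was above Gipr in 3 of 4 libraries, by 1.18 ± 0.267 times, so their order was not the same throughout. The vasopressin receptor Avpr1b stood at 36.1, 18.5, 38.4 and 35.6 CPM, with control 2 low, and Galr3, a galanin receptor, at 3.23 ± 0.368 CPM/kb. Gcgr, the receptor for glucagon itself, was chosen after its values were seen. It stood at 2.06, 2.75, 1.19 and 1.56 CPM, a level per length of 0.0408 ± 0.0116 times that of Glp1r.

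Of 91 receptors for amines, nucleotides, lipids and small metabolites, 24 reached 1 CPM in all 4 libraries, and the median was 0.0490 CPM/kb (0.0241 without control 4). Casr, the calcium-sensing receptor, led at 168, 142, 216 and 188 CPM (37.9 ± 6.6 CPM/kb), above every other member in all 4 libraries. The next 4 had nearly the same level per length: the fatty acid receptor Ffar4 (13.0 ± 0.905), the lipid amide receptor Gpr119 (12.3 ± 2.84), the tryptophan receptor Gpr142 (12.3 ± 1.08) and the fatty acid receptor Ffar1 (12.1 ± 0.763). Their ranges overlapped and their order was not resolved by 4 libraries. Ffar2 (5.06 ± 1.32), the adrenergic receptor Adra2a (4.72 ± 1.01) and the lactate receptor Hcar1 (3.40 ± 0.830) completed the first 8. The 106 orphan and adhesion receptors had a median of 0.135 CPM/kb (0.0608 without control 4), and 39 reached 1 CPM in all 4 libraries. The adrenergic receptor Adrb1, chosen after its values were seen, stood at 11.7, 8.59, 7.94 and 12.6 CPM.

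Among 69 receptor tyrosine kinases and cytokine receptors, 35 reached 1 CPM in all 4 libraries. The interleukin 1 receptor gene Il1r1 led at 328, 246, 248 and 253 CPM, with control 1 high and the other 3 within 10 CPM of each other. The collagen receptor Ddr1 (36.7 ± 3.05 CPM/kb), the interleukin 6 receptor Il6ra (26.9 ± 1.51), the insulin receptor relative Insrr (23.2 ± 2.79), the GDNF family coreceptor Gfra3 (16.5 ± 3.96) and the shared interleukin 6 subunit Il6st (15.7 ± 0.823) followed. The insulin receptor Insr, chosen after its values were seen, stood at 6.71 ± 0.897 CPM/kb. Of 49 nuclear receptors 29 reached 1 CPM in all 4 libraries. Nr4a1, an immediate early nuclear receptor, led them at 45.2, 187, 266 and 243 CPM, so control 1 was far below the rest, and its relative Nr4a2 was low in the same library at 43.9, 95, 131 and 137 CPM. The thyroid hormone receptor Thra (24.9 ± 2.31 CPM/kb) and the vitamin D receptor Vdr (24.8 ± 5.38) stood level with each other.

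Both subunits of the ATP-sensitive potassium channel ranked high among 94 potassium channel genes, of which 43 reached 1 CPM in all 4 libraries. Abcc8, the sulfonylurea receptor subunit, stood at 1242, 1221, 1199 and 1793 CPM, with control 4 high. Its pore partner Kcnj11 stood at 105, 121, 121 and 114 CPM. Although 1 channel holds equal numbers of each subunit, Abcc8 was above Kcnj11 by 5.41 ± 1.23 times per length, from 4.52 to 7.17 times. The leak channel Kcnk16 lay between them at 277, 296, 274 and 236 CPM and was 4.69 ± 0.355 times above its relative Kcnk3. Kcnh6, an ERG-type channel, stood at 138, 140, 136 and 256 CPM, again high in control 4 alone, and Kcnh2 at 107, 130, 113 and 117 CPM.

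Of 26 calcium channel subunits, 17 reached 1 CPM in all 4 libraries. The accessory subunit Cacnb3 led at 102, 91.6, 91.7 and 95.2 CPM (23.7 ± 1.16 CPM/kb). Among the pore-forming genes the L-type Cacna1d stood at 168, 151, 156 and 266 CPM and the P/Q-type Cacna1a at 166, 144, 130 and 228 CPM. Per length these 2 were level, with a ratio of 1.00 ± 0.0849 and each the higher in 2 libraries. Cacna1d was above the L-type Cacna1c by 2.23 ± 0.128 times, and Cacna1a above the N-type Cacna1b, chosen after its values were seen, by 4.49 ± 0.313 times. Control 4 was the highest library for all 4 of these long genes.

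The leading sodium channel genes stood below the leading potassium and calcium channel genes per length, while the median of the 15 sodium channel subunits (0.961 CPM/kb) was above those of the potassium (0.291) and calcium (0.836) channel lists. Scn3a stood at 79.2, 76.2, 85.2 and 121 CPM, Scn9a at 84.2, 72, 79.9 and 86.6 CPM, and the leak channel Nalcn at 83.0, 73.9, 77.1 and 115 CPM. Scn3a was above Scn9a per length in 3 of 4 libraries, by 1.15 ± 0.204 times. Of 42 glutamate, GABA and glycine receptor genes, 13 reached 1 CPM in all 4 libraries. Kainate subunit Grik5 stood at 90.8, 93.6, 88.4 and 133 CPM and AMPA subunit Gria2 at 206, 171, 222 and 382 CPM, both highest in control 4. The GABA-B subunit Gabbr1 stood at 6.77 ± 2.45 CPM/kb. The calcium release channel Itpr1 of the endoplasmic reticulum stood at 976, 800, 871 and 1129 CPM and was above Itpr3 by 2.82 ± 0.210 times per length.

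**Figure D4:**
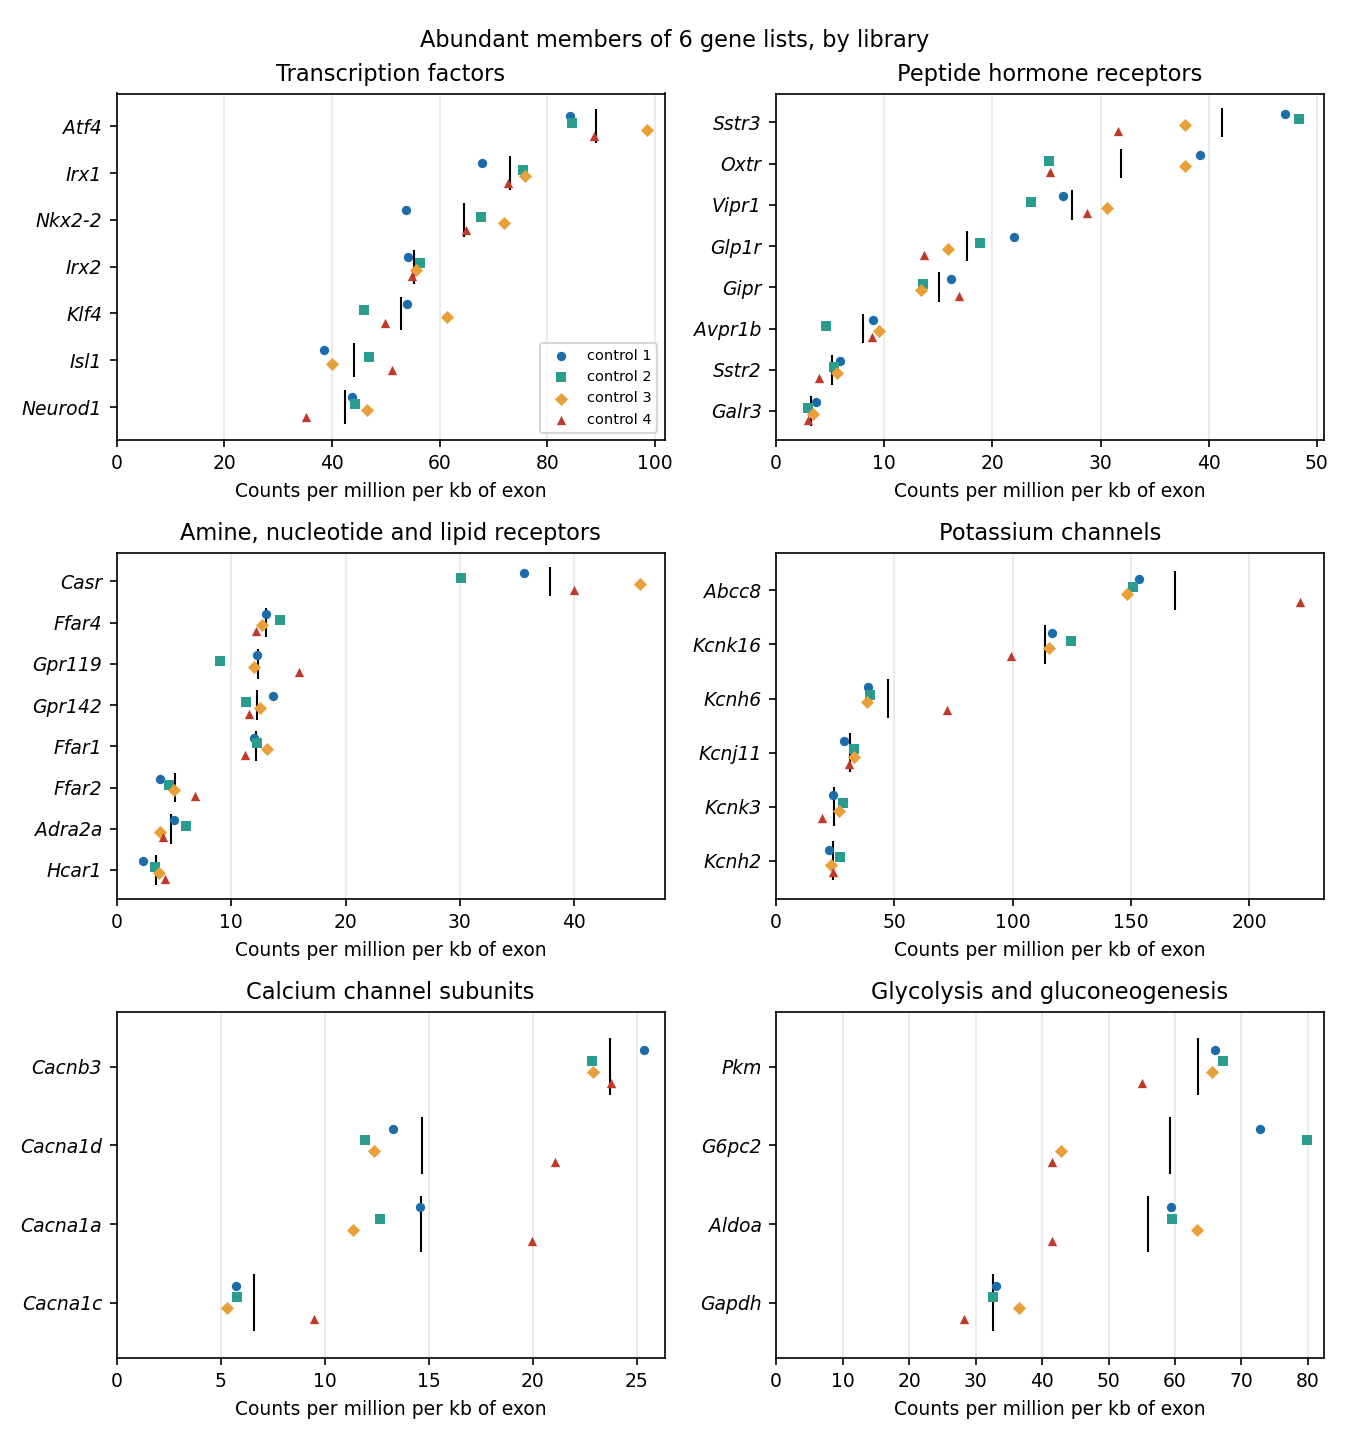
CPM per kb of exon in each control library for abundant members of 6 gene lists that the text names, with symbols for libraries and a black line for the mean. Casr and Abcc8 stand clear of the other members drawn, Cacna1d and Cacna1a overlap, and control 4 is the rightmost library for Abcc8, Kcnh6 and Cacna1d.

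Among 39 genes of glycolysis and gluconeogenesis, 28 reached 1 CPM in all 4 libraries and the median was 5.18 CPM/kb. Pyruvate kinase (Pkm) stood at 330, 337, 328 and 276 CPM. G6pc2, an islet glucose-6-phosphatase subunit, stood at 144, 158, 84.6 and 81.8 CPM and so fell into the same pairs of libraries as the insulin genes. Without control 3 it took the first place per length from Pkm. Aldoa (55.9 ± 9.83 CPM/kb) and Gapdh (32.7 ± 3.37) came next.

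Ldha and Ldhb, which encode the lactate dehydrogenase subunits, were chosen after their values were seen. Ldha stood at 1.06, 3.61, 2.15 and 1.02 CPM and Ldhb at 10.3, 12.1, 11.2 and 8.93 CPM, so Ldhb was above Ldha per length by 7.06 to 20.6 times. The monocarboxylate carrier Slc16a1, chosen in the same way, stood at 0.570, 1.17, 0.835 and 0.856 CPM.

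Citrate cycle, pyruvate entry and shuttle genes were present almost throughout, 46 of 47 at 1 CPM in all 4 libraries, with a median of 8.30 CPM/kb. Acly, which makes cytosolic acetyl-CoA from citrate, led at 709, 686, 721 and 594 CPM (128 ± 10.9 CPM/kb). Pdk4, the kinase that inhibits pyruvate dehydrogenase, stood at 224, 203, 199 and 200 CPM (58.9 ± 3.36). Glul, glutamine synthetase (51.9 ± 4.19), and Glud1, glutamate dehydrogenase (42.0 ± 2.31), followed. For fatty acid oxidation and ketone use, 24 of 26 genes reached 1 CPM in all 4 libraries. Carnitine palmitoyltransferase Cpt2 (21.7 ± 3.40 CPM/kb) and the dehydrogenase Acadl (20.4 ± 1.8) overlapped, with Cpt2 the higher in 3 of 4 libraries. Hadh stood at 87.7, 121, 56.0 and 48.6 CPM, higher in controls 1 and 2.

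Of 59 transporters of glucose, amino acids and zinc, 39 reached 1 CPM in all 4 libraries. After Slc30a8 and Slc7a2 the order was Slc7a8, a neutral amino acid exchanger, at 305, 204, 390 and 324 CPM, and Slc38a4, a sodium-coupled amino acid carrier, at 221, 173, 199 and 194 CPM. Control 2 was the lowest library for both. Slc7a2 was above Slc7a8 per length by 2.12 ± 0.655 times. The exchanger heavy chain Slc3a2 stood at 38.7 ± 4.37 CPM/kb and Slc38a10 at 37.2 ± 2.62. Among hexose carriers the fructose transporter gene Slc2a5 was the highest, at 124, 133, 119 and 102 CPM (35.2 ± 3.82 CPM/kb). The glucose transporter genes Slc2a1 and Slc2a2 were chosen after their values were seen. Slc2a1 stood at 5.36, 5.46, 5.83 and 5.60 CPM, below Slc2a5 by 22.2 ± 2.84 times per length. Slc2a2, a beta cell marker, stood at 76.6, 84.2, 60.1 and 52.3 CPM, again in the order of the insulin genes.

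Folding and stress genes of the endoplasmic reticulum had a median of 26.1 CPM/kb, and 30 of 31 reached 1 CPM in all 4 libraries. The chaperones Hsp90b1 (204 ± 38.7 CPM/kb), Pdia3 (181 ± 27.7), P4hb (165 ± 17.3), Hspa5 (164 ± 33.8) and Calr (154 ± 21.2) led. Immediate early genes, which respond rapidly to stimuli and are known to be induced by tissue dissociation, had a median of 46.7 CPM/kb. Fos stood at 1898, 2309, 2279 and 2015 CPM and ranked 13 among all protein-coding genes per length. Egr1 stood at 1734, 2095, 1735 and 1897 CPM and Jun at 981, 1171, 1305 and 1043 CPM, so these 3 were high in every library. Of 14 proliferation genes 7 reached 1 CPM in all 4 libraries. Mki67 stood at 22.8, 17.6, 15.0 and 17.8 CPM, or 1.82 ± 0.326 CPM/kb.

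Hormones from outside the islet set were scarce: 26 of 36 reached 1 CPM in no library. Nucb2, the precursor of nesfatin, led at 94.9, 98.7, 99.2 and 71.5 CPM. Neuropeptide Y (Npy) stood at 2.36, 31.9, 6.02 and 3.64 CPM, high in control 2 alone (19.4 ± 24.8 CPM/kb, and 7.08 without that library), and Ucn3 (urocortin 3) at 27.6, 22.5, 22.2 and 16 CPM. Vip stood at 3.67, 18.4, 16.4 and 11.4 CPM, low in control 1.

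Agreement between libraries was measured over the 12677 genes at or above 1 CPM in all 4, on log2(CPM + 1). These are correlations across genes, which are not independent replicates, so no p is given. Pearson's r was 0.987 to 0.990 for the 3 pairs among controls 1 to 3, and 0.964 to 0.972 for the 3 pairs with control 4. The median absolute difference of a gene was 0.14 to 0.16 on the log2 scale for the first 3 pairs and 0.22 to 0.24 for those with control 4. Between 98.9 and 99.5% of genes lay within 1 log2 unit in the first 3 pairs, and 94.9 to 96.6% in pairs with control 4. The median SD of a gene over the 4 libraries was 0.17 on the log2 scale, and 0.13 without control 4. It depended on level: 0.24 for genes of 1 to 3 CPM, 0.14 for genes of 30 to 100 CPM, and 0.21 for the 46 genes above 1000 CPM.

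The 8 steadiest genes of mean level at least 20 CPM were Vezf1, Prickle1, Plekhm1, Endov, Flot1, Rps13, Fam53c and Ric3. Vezf1, a zinc finger factor, stood at 101.8, 101.1, 101.0 and 101.6 CPM. At the other end, among genes with under 10% of their exons below exons of the opposite strand, the 8 most variable were the Y-linked Ddx3y and Kdm5d, the pancreatic lipase gene Pnlip, Iqcn, the ribosomal model n-R5-8s1, the small nuclear RNA models Gm24407 and Gm24265, and C130089K02Rik. Pnlip, an acinar enzyme, stood at 15.9, 0.985, 63.1 and 1.06 CPM, highest in control 3 and next in control 1 as was the acinar sum. Iqcn stood at 35.1, 16, 3.32 and 46.6 CPM.

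Control 4 differed from the others at genes that overlap a gene on the opposite strand. Each library was set against the mean of the other 3, over the genes at or above 1 CPM in those 3. Where no gene lies opposite, control 4 had a median difference of 0.06 on the log2 scale (8130 genes). With under 10% of a gene's exons under opposite-strand exons it was 0.05 (2605 genes). Where exons of the opposite strand covered 10 to 50% of a gene's exons it was -0.19 (1328 genes), at 50 to 90% it was -0.93 (115 genes), and at 90% or more it was -2.23 (30 genes, 27 of them lower by more than 1). That choice of genes leaves out those that are high in control 4 alone, so it bears on the direction. With genes kept by a mean of at least 1 CPM over the 4 libraries, a choice made after the data were seen, the medians were -0.15 (1490 genes), -0.81 (128 genes) and -2.30 (28 genes). At 10 to 50% overlap 83 of these genes were then lower by more than 1 and 102 higher by more than 1, so the class held shifts in both directions. At 50 to 90% it was 53 lower and 8 higher, and at 90% or more 25 lower and 0 higher. With genes at or above 1 CPM in at least 1 library the medians were -0.08, -0.63 and -1.41. Genes inside a gene body of the opposite strand without exon overlap went the other way in control 4. Their median was 0.13 (640 genes) by the first choice, 0.27 (864 genes) by the mean and 0.76 (1405 genes) by the last. The choice by the mean and the last one admit genes that pass through a high level in control 4 alone. The rise of the median between choices is therefore not read as a larger difference.

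Because control 4 is part of the mean each other library is set against, the values of controls 1 to 3 (0.10, 0.06 and 0.02 at 10 to 50% overlap, and 0.25 to 0.31 at 50 to 90%) carry its shift with the opposite sign.

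**Figure D5:**
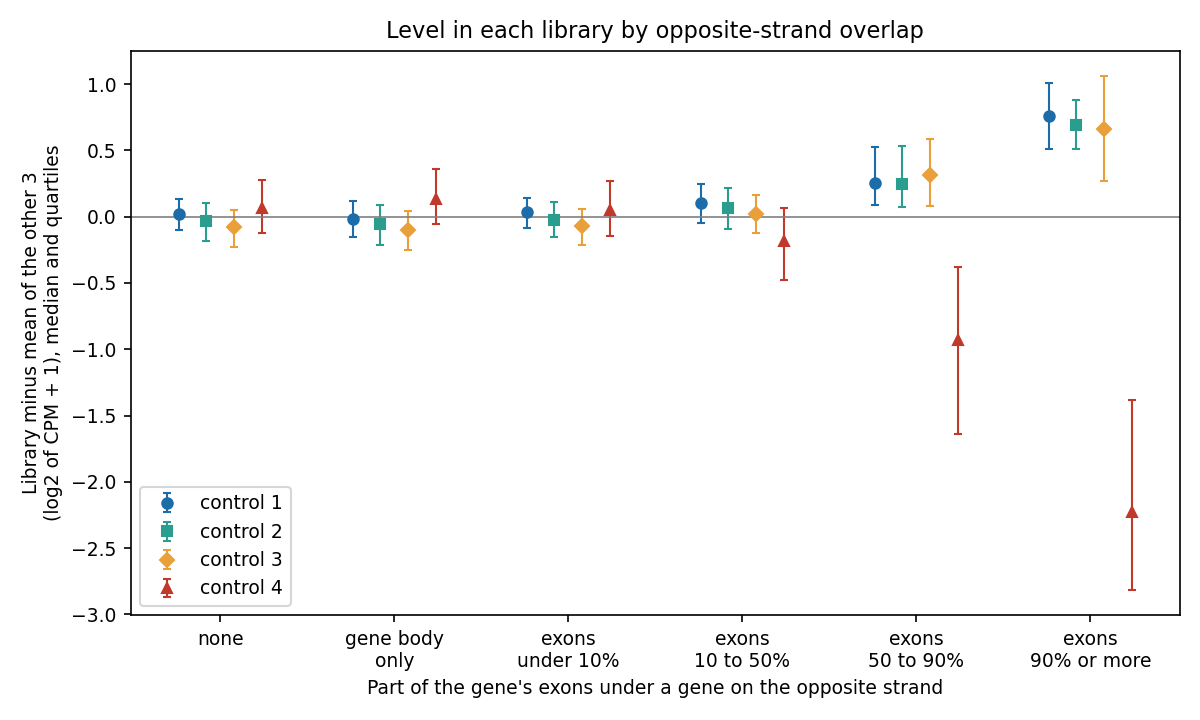
Difference of each library from the mean of the other 3 on log2(CPM + 1) (vertical axis; symbols are medians over genes and bars the quartiles), by how much of a gene's exons lies under a gene of the opposite strand. Control 4 goes from 0.06 without overlap to -2.23 at 90% or more; in the last class controls 1 to 3 have 2 genes each.

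The single genes given next were named because they were among the most variable between libraries of the overlapping genes. A large gap was therefore favoured by that choice, and they show the largest shifts and not the usual size. By the first choice of genes, the median difference of control 4 was -0.93 at 50 to 90% overlap and -2.23 at 90% or more. Ilk, a kinase of cell adhesion, has 89.7% of its exons under opposite-strand exons and stood at 39.3, 39.7, 37.7 and 0.483 CPM. Snrpf, a splicing factor subunit with 85.4% overlap, stood at 50.1, 47.9, 48.8 and 1.74 CPM. Tshz2, a zinc finger gene with 67.5% overlap, stood at 181, 191, 183 and 16.3 CPM, and Kctd12, with 62.8%, at 122, 108, 95 and 12.7 CPM. In each of the 4, controls 1 to 3 lay close together and control 4 was far below them. Gm20721 had the same pattern at 28.6, 25.7, 31.7 and 1.16 CPM.

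The shift reached members of the lists above. Jund, an AP-1 gene with 52.6% overlap, stood at 472, 470, 487 and 135 CPM, and the ribosomal protein gene Rpl23a, with 59.7%, at 325, 338, 324 and 40.8 CPM. The opposing models Gm42418 and CT010467.1 moved in opposite directions: Gm42418 stood at 18790, 21928, 20050 and 0 CPM and CT010467.1, with 73.9% overlap, at 1680, 2341, 2386 and 33594 CPM. The mitochondrial gene mt-Nd6, chosen after its values were seen, lies on the strand opposite to most mitochondrial genes and stood at 55.7, 52.9, 52.0 and 222 CPM. In all, 1976 genes reached 1 CPM in control 4 alone, 79.6% of them not protein-coding and 58.1% in or over a gene of the opposite strand, against 74 to 156 genes for each other library. Which strand was counted in each library is not given in the sources used here, and its part in these differences was not tested. Genes without overlap also differed in control 4 by length, from a median of -0.03 for genes with up to 2654 bases of exon to 0.19 for genes with 6658 bases or more. Control 3 went the other way, from -0.02 to -0.15, and control 2 from -0.01 to -0.07, each against a mean that includes control 4.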

How the data were processed

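RNA of sorted mouse alpha cells was sequenced in 4 control libraries, prepared with a stranded low-input total RNA kit (Takara SMARTer Pico) per the labels' protocols; the labels name polyA RNA in one field and ribosomal depletion in another. The authors deposited 1 table of raw counts per gene symbol; per the submitters' processing notes STAR, featureCounts, FastQC and DESeq2 were used with mm10, and the strand setting is not given in the sources used here. The 3 knockout columns were not used, so there is no contrast and no test. Low counts were mostly even (85.1 to 88.9% of counts of 1 to 10), as when both mates of a pair are counted. Counting intervals are therefore too narrow, and limits set at 3 counts are too low.

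Counts were divided by the column total to give CPM and by the union of exons (GENCODE M21, GRCm38; all 55536 symbols matched) to give CPM/kb. Symbols with several gene models took the one with more counts. The scripts were tested on simulated data, and edgeR 4.0.16 gave trimmed-mean (TMM) library sizes as an alternative. Means, SDs and correlations were computed with Python 3.11.15 and pandas 2.3.3. Named genes are the 5 markers, the 20 highest protein-coding genes by CPM/kb, the islet hormones, the first 8 of each of 39 lists, members below 1 CPM where needed, and the 8 most and least variable genes (mean of at least 20 CPM), split at 10% opposite-strand exon overlap; others are said to be chosen after their values were seen. Members and lists were chosen with earlier results of these data known. Of the listed entries 1 (Spink3) was not found, and the angiotensin receptor pattern was narrowed after the data were seen. Some genes that the rule names are not reported here. Near-identical genes (insulin, globin and ribosomal protein families) may share reads.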

Additional observations from a re-analysis of the deposited data

Results flagged for a closer look

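In groups of 4 libraries, 210 quantities (168 genes named in the text, the sums of the gene lists and the library summaries) were checked for 1 library whose gap to the nearest other exceeded Dixon's 95% critical value. Chance flags about 1 in 20 values that were not selected. Here 38 were found, 31 of them set apart by control 4, but some of the genes were named for their spread between libraries or after their values were seen, and genes share libraries. The count is therefore not read against that share.

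Control 4 stood apart by its total of 72456557 counts and by its 15714 genes at or above 1 CPM. It was high for the channel and receptor genes Abcc8 (1793 CPM against 1199 to 1242 in the other 3), Cacna1c (201 against 112 to 123), Cacna1d (266 against 151 to 168), Kcnh6 (256 against 136 to 140), Grik5 (133 against 88.4 to 93.6) and Gabbr1 (80.9 against 41.7 to 45.4). The sum over glutamate, GABA and glycine receptors was 814 CPM against 497 to 527, and that over sodium channel subunits 454 against 304 to 327. Among exocytosis genes it was high for Sytl5 (146 against 114 to 119). It was also high for Loxl4 (1.32 CPM), mt-Nd6 (222), C130089K02Rik (69.8), the small RNA models Gm24407 (164) and Gm24265 (132), n-R5-8s1 (74.0) and CT010467.1 (33594), and for the erythroid marker sum (6.22), most of it Alas2 (5.53).

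Control 4 was low for Pcsk2 (3154 CPM against 5169 to 5355), Hsp90b1 (590 against 878 to 928), Pkm (276 against 328 to 337), Nucb2 (71.5 against 94.9 to 99.2) and the sum over glycolysis and gluconeogenesis (1343 against 1559 to 1595). The genes with opposite-strand overlap described in the report were low as well: Ilk (0.483), Snrpf (1.74), Tshz2 (16.3), Jund (135), Rpl23a (40.8) and Gm42418 (0).

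Control 2 was high for Ppy (6983 CPM) and Npy (31.9) and low for Avpr1b (18.5). Control 3 was high for Ttr (4851 CPM), Pcsk1n (2119) and Ptprc (0.352), and control 1 for Il1r1 (328).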

How the results depend on the processing

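No paired analysis was possible because only 1 group is described and no groups are compared. The share of Gcg rose from 12.5% to 16.1% of counts without ribosomal RNA and mitochondrial genes and to 16.8% of protein-coding counts, and the share of the 10 most abundant genes was 22.9% among protein-coding genes against 37.8% among all. The median SD of a gene was 0.14 on the log2 scale with no filter on low levels. Leaving out each library in turn, the median pairwise r was 0.966 to 0.988, the median SD 0.13 to 0.18, the number of genes at or above 1 CPM in every library 12811 to 12934, the share of Gcg 12.2 to 12.9% and that of the 10 most abundant genes 37.0 to 38.4%. The largest change of r came without control 1 and of the SD without control 4. From 0.979 with all 4, r fell to 0.966, 0.972 and 0.971 without controls 1, 2 and 3, where most remaining pairs include control 4. It rose only without control 4 (0.988). The leading gene of a list stayed the same in 36 of 39 lists with the longest transcript as length. Hadha, Nalcn and Nkx2-2 then led in place of Cpt2, Scn3a and Irx1. The leader stayed in 38 of 39 without control 2 (Acadl for Cpt2) and without control 3 (G6pc2 for Pkm), and in 39 of 39 under the other settings. TMM sizes and the protein-coding denominator scale all genes of a library alike, so they could hardly change that order. Of 168 named genes, 67 rose by more than their SD with the longest transcript as length and 127 with protein-coding counts as denominator. TMM library sizes moved none that far, which their factors of 0.942 to 1.10 made likely in advance. The differences of control 4 by opposite-strand overlap kept their sign in all 6 classes under both other choices of genes. Those choices were added after the data were seen, and the report gives most of their values. Both admit genes that are high in control 4 alone, so a positive sign was favoured by the choice. A mean of 4 cannot move by more than its SD when 1 library is left out, so that range does not show stability. Absolute levels therefore depend on the length and the denominator, and depth limits genes near 3 counts, or 0.0414 to 0.0660 CPM.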
